A study of Mus musculus with 10 samples.

Results

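The genes described here encode the extracellular and membrane entry points of Wnt signalling, namely the Wnt ligands, the Frizzled receptors and the secreted inhibitors of the Sfrp and Dkk families. They were taken by name from the gene annotation that the deposited table gives for each 5 kb window on chromosomes 1 to 19. This gave 36 genes of 23225, made up of 19 Wnt ligands, 9 Frizzled receptors and 8 inhibitors (4 Sfrp and 4 Dkk), and 207 windows of the 214231 that carried a gene name. Of these windows, 127 were assigned to ligands, 33 to receptors and 47 to inhibitors. Fzd10 was not analysed here. Each gene was described by its highest window, which was the one with the largest mean H3K4me3 over all 6 libraries, and then by all of its windows.

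Wnt proteins are secreted, lipid-modified ligands that bind Frizzled receptors together with the coreceptors Lrp5 and Lrp6. In the canonical branch this stabilizes beta-catenin, which enters the nucleus and acts with Tcf and Lef factors. Sfrp proteins bind Wnt ligands outside the cell, and most Dkk proteins block the coreceptors. The genes are developmental regulators with CpG-rich promoters, and in the ovary Wnt4 is known for its role in female gonad development. H3K4me3 is a histone mark of active and CpG-rich promoters that in growing oocytes also spreads over broad domains outside promoters. SETD1B is one of the methyltransferases that place it.

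H3K4me3 was profiled by ULI-nChIP-seq, a native ChIP protocol for few cells, in germinal vesicle (GV) oocytes, which are fully grown and arrested in meiosis, from C57BL6 females aged 21 days. Setd1b cKO oocytes were Setd1b floxed/floxed and Gdf9-Cre positive, so that Cre was driven by the promoter of the oocyte gene Gdf9. The labels give WT oocytes as Setd1b floxed/floxed and Gdf9-Cre negative. The study's methods also count females with Gdf9-Cre and a single mutated Setd1b allele as WT, and the labels do not say whether any pool held their oocytes. Each library came from a pool of oocytes, with cKO replicates 1, 3 and 4 (N = 3), WT replicates 1, 2 and 4 (N = 3) and inputs for replicates 1 and 4 of each genotype. The study's methods left out a further library of each genotype for poor enrichment, judged in part by its place in hierarchical clustering. Values are enrichment-normalized RPKM, a linear score that can fall below 0. Because its zero point differed between libraries, differences and not folds are given, as cKO minus WT with the standard error (SE) from limma. A gain or loss of H3K4me3 was an adjusted p under 0.05 in limma over all 544879 windows. The labels call the libraries biological replicates without saying how animals were divided among the pools. The p-values thus set the difference against the spread between these libraries, which limma moderated over all windows. An exact permutation test of 3 against 3 libraries cannot give a p below 0.1 and was not used for single windows.

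The H3K4me3 libraries held between 10856015 and 32775874 reads. The normalized value that stood for 0 reads was 0.785, −1.02 and −0.70 in cKO replicates 1, 3 and 4, and 0.81, −0.0359 and 0.2996 in WT replicates 1, 2 and 4. In the Setd1b gene, the window from 123145001 on chromosome 5 had 2.17, 3.21 and 3.25 in cKO and 8.34, 9.69 and 7.37 in WT (difference −5.59, limma adjusted p = 0.0124). This is a level of the mark and does not by itself show the deletion. At the TSS windows of 8 oocyte genes, levels summed to 46.7, 42.2 and 44.8 in cKO and 49.6, 47.6 and 48.2 in WT, with 6 of the 8 genes lower in cKO and none past the test. Gdf9 itself had 9.99, 12.6 and 9.52 in cKO and 7.30, 7.94 and 7.13 in WT (difference 3.24, limma adjusted p = 0.0598), and without it the sums were 36.7, 29.6 and 35.3 in cKO and 42.3, 39.6 and 41.1 in WT. At those of 8 granulosa cell genes they summed to 34.2, 34.5 and 33.4 in cKO and 23.5, 23.3 and 24.8 in WT, with 8 of 8 higher in cKO and 1, Foxl2, past the test (difference 2.85, limma adjusted p = 0.0415). Over 16131 gene windows with a TSS, 56.2% were higher in cKO (43.8% in edgeR), 1.21% had a gain and 0.775% a loss. The lowest granulosa gene was Fshr, the follicle stimulating hormone receptor, with a mean of 0.87 in WT and 1.27 in cKO. These sums lay apart between the groups in the same direction as many Wnt genes below, and their part in those results was not tested.

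The promoters of the genes that carry the main results are shown with the stretches of gene body where H3K4me3 was gained, so that the CpG-dense start sites can be set beside the gained regions. Promoters of 24 of the 36 genes, 27 sequences in all, were found in the RefSeq table for GRCm38.p6, each 300 bases long with 250 before and 50 after the start. They held between 4 and 58 CG dinucleotides (median 26), against a median of 7 in all 32851 promoters of the table, of which 94.6% held at least 1. Capitals mark the CG dinucleotides, which read the same on both strands. Wnt5b (chr6:119544298-119544597, minus strand) held 47, Wnt7a (chr6:91411304-91411603, minus strand) 42 and Wnt2b (chr3:104961660-104961959, minus strand) 43. The 300 bases with the most CG were also read from GRCm38 (plus strand) in the stronger of the gained windows of Wnt5b, chr6:119491050-119491349 with 11, and in the gained Wnt7a window, chr6:91388033-91388332 with 10. In the other gained window of Wnt5b, not shown, that stretch was chr6:119496052-119496351 with 12.
Wnt5b promoter: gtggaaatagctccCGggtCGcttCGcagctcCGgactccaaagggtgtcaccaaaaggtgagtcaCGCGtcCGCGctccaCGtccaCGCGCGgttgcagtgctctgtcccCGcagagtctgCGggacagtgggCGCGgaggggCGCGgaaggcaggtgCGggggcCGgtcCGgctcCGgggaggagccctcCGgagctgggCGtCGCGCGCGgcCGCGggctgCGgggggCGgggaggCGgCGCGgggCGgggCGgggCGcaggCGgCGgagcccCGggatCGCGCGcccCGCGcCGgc
Wnt7a promoter: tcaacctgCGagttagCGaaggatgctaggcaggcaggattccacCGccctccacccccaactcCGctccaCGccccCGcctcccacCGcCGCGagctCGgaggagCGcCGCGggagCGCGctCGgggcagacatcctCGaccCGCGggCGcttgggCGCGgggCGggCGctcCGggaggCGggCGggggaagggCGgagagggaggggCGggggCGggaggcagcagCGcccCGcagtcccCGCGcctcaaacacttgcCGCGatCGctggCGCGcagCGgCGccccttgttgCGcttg
Wnt2b promoter: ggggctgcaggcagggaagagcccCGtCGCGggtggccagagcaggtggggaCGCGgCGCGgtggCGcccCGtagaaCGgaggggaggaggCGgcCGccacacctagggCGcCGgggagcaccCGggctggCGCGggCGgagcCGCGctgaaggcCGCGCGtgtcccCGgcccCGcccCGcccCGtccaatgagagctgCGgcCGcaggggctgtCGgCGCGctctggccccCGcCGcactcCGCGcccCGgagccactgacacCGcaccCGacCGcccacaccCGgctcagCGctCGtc
Wnt5b stronger gained window: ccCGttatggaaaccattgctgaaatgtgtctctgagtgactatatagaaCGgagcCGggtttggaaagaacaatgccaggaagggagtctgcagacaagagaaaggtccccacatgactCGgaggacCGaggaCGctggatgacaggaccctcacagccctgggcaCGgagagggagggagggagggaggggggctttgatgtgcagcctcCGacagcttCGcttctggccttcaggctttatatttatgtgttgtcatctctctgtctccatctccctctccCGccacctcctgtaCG
Wnt7a gained window: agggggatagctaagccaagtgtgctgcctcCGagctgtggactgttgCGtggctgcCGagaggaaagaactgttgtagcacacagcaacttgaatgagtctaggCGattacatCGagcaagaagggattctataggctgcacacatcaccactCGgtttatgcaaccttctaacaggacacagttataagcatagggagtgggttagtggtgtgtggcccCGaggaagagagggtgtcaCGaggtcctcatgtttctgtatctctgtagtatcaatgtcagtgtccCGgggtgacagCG
Both gene body stretches shown held fewer CG than the 3 promoters shown, although the other RefSeq promoters of Wnt5b held only 4 and 7. Neither of their windows held an exon of its own gene or a transcript start in the GENCODE M21 annotation.

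At their highest windows, which were chosen for their level, the 36 genes had a median of 4.66 normalized RPKM in WT and 5.35 in cKO, and no gene passed the test in either direction. The share of highest windows over all 23225 genes with a gain was 1.28% and with a loss 1.18%. At an unadjusted p under 0.05 in limma, 9 of the 36 were higher and 1 was lower in cKO, where the background over all genes was 13.9% higher and 11.6% lower, and edgeR on whole reads also called 0 in each direction (background 0.602% with a gain and 0.58% with a loss). The lowest limma adjusted p was 0.0969, at Wnt2b. With an intensity trend in limma, Wnt2b alone was called as a gain (adjusted p = 0.0373), 1 of 36 genes where the background with the trend was 2.12% with a gain and 2.48% with a loss.

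The direction at the highest windows leaned to cKO, and it depended on the scaling. The cKO mean was higher at 28 of 36 genes (77.8%), against 51.6% of all genes, but edgeR on whole reads put only 17 of 36 above 0, against 39.2% of all genes. The median difference was 0.565 over the 36 genes and 0.038 over all genes, and by edgeR the median log2 fold change was −0.02 over the 36 and −0.11 over all genes. All 3 cKO libraries lay above all 3 WT libraries at 12 of the 36 genes and below them at none, where the background over all genes was 13.8% above and 10.6% below. On the deposited scale 17 of 19 ligands were higher in cKO (9 of 19 by edgeR), against 5 of 9 receptors (3 by edgeR) and 6 of 8 inhibitors (5 by edgeR). The median differences were 0.98 for ligands, 0.0317 for receptors and 0.318 for inhibitors, with no test between the classes. Their order changed without cKO replicate 3, where the medians were 0.727, 0.975 and 0.445. It stayed the same without cKO replicate 1, where they were 0.91, −0.297 and 0.449.

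**Figure D1:**
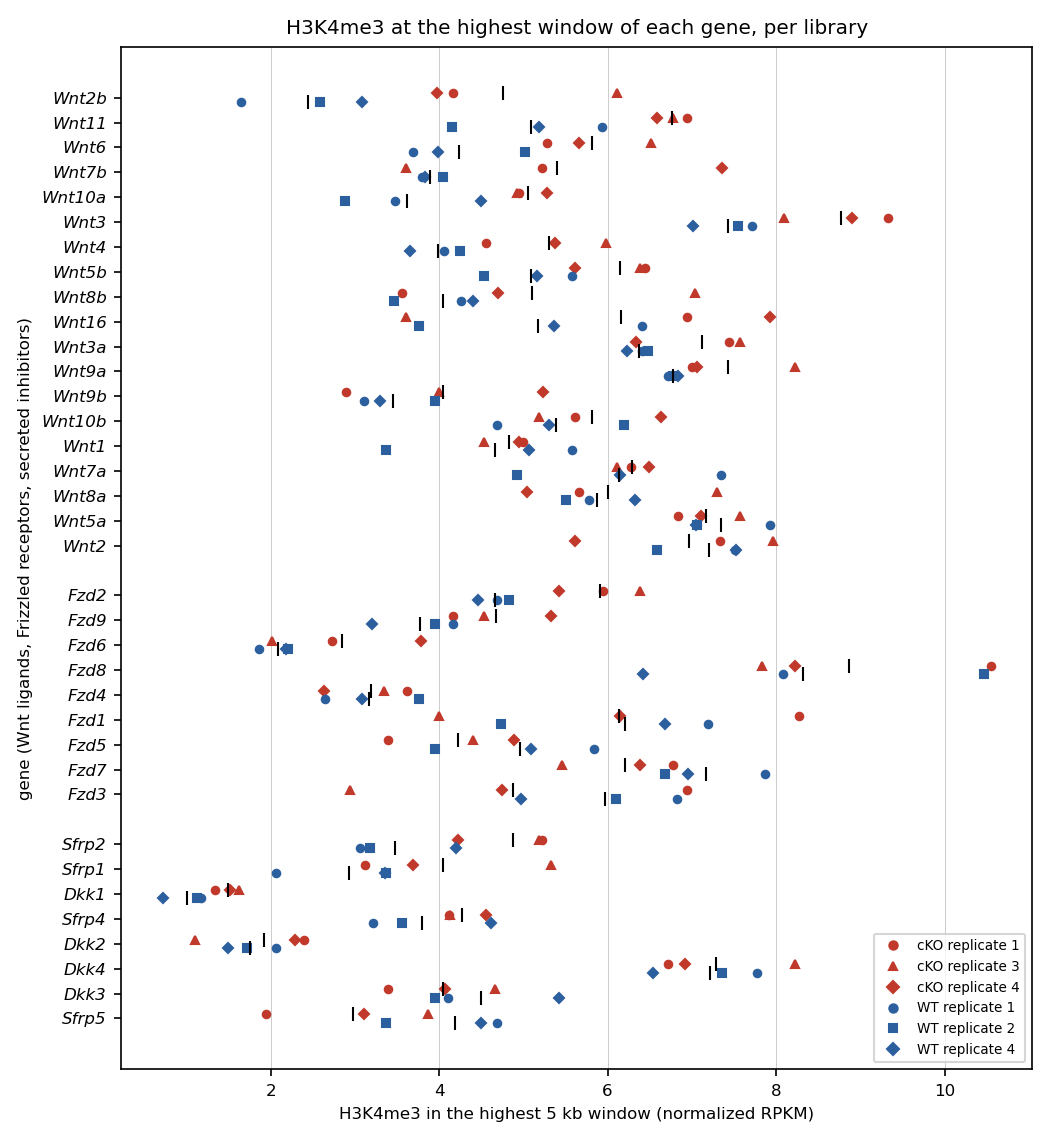
H3K4me3 in the highest 5 kb window of each of the 36 genes (x axis, normalized RPKM) for every library (cKO red, WT blue, black ticks the group means), ordered within each class by cKO minus WT. All cKO points lie to the right of all WT points in 12 genes, 8 of them ligands, and in no gene do they all lie to the left; on whole reads in edgeR 17 of the 36 genes were higher in cKO.

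Among the ligands the largest difference at the highest window was at Wnt2b, whose product acts in organ development. Its window with the TSS, chr3:104960001-104965000, had 4.17, 6.11 and 3.98 in cKO replicates 1, 3 and 4 and 1.65, 2.59 and 3.09 in WT replicates 1, 2 and 4. All cKO libraries were above all WT libraries, with cKO replicate 3 the highest, and the means were 4.75 ± 1.18 and 2.44 ± 0.731 (SD, n = 3 each; difference 2.31, SE 0.594). This window is the one that holds the CpG-dense Wnt2b promoter shown above, with 169 CpGs over its 5 kb.

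Wnt11, a ligand of the non-canonical branch, had 6.94, 6.77 and 6.58 in cKO and 5.94, 4.15 and 5.19 in WT at its highest window (difference 1.68, SE 0.458, limma adjusted p = 0.114). The cKO libraries were close together and above the spread of WT. Wnt6 and Wnt10a are neighbouring ligand genes on chromosome 1 (74771892 to 74785322 and 74791516 to 74804179) that act in ectodermal organs such as teeth. The Wnt6 window had 5.28, 6.51 and 5.67 in cKO and 3.69, 5.02 and 3.99 in WT (difference 1.59, SE 0.465, limma adjusted p = 0.137). The Wnt10a window had 4.94, 4.93 and 5.28 in cKO and 3.48, 2.88 and 4.50 in WT (difference 1.43, SE 0.438, limma adjusted p = 0.153). At both genes the groups did not overlap. Wnt7b, which acts in lung and kidney, had 5.22, 3.61 and 7.35 in cKO and 3.79, 4.05 and 3.84 in WT (difference 1.50, SE 0.752, limma adjusted p = 0.394). Here WT was tight and cKO was not, since cKO replicate 3 fell below every WT library.

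None of the 3 most strongly marked ligands in WT passed the test. Wnt3, needed for gastrulation, had 9.33, 8.09 and 8.90 in cKO and 7.72, 7.55 and 7.01 in WT, without overlap (difference 1.34, SE 0.41, limma adjusted p = 0.152). Wnt5a, the best known non-canonical ligand, had 6.83, 7.57 and 7.11 in cKO and 7.93, 7.07 and 7.04 in WT (difference −0.176, SE 0.388, limma adjusted p = 0.838). Wnt2 had 7.33, 7.96 and 5.62 in cKO and 7.51, 6.58 and 7.52 in WT (difference −0.234, SE 0.575, limma adjusted p = 0.856). Wnt5a and Wnt2 were the only ligands whose mean was lower in cKO at the highest window on the deposited scale, and both sets of libraries overlapped. The other 11 ligands had differences between 0.13 at Wnt8a and 1.32 at Wnt4, which lay in between.

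Over all 207 windows there were 3 gains and 0 losses, all 3 in ligand genes. The background was 0.932% of gene windows with a gain and 0.342% with a loss, and over every window it was 0.563% and 0.454%. With an intensity trend there were 13 gains and 0 losses among the 207 windows (background 2.6% and 0.951% of gene windows, 1.57% and 2.01% of all windows). In edgeR there were 7 gains and 0 losses (background 1.63% and 0.447% of gene windows, 1.07% and 1.22% of all windows). The study's methods name limma without its variance model. The gains were all in ligand genes in these 3 tests, while receptors held only 33 and inhibitors 47 of the windows, and the difference between classes was not tested. At an unadjusted p under 0.05 in limma, 55 of the 207 windows were higher and 7 lower in cKO, where the background was 10.9% and 4.77% of gene windows.

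The strongest gain lay inside Wnt5b (ENSMUSG00000030170, chromosome 6, 119432531 to 119544347, minus strand), a ligand known from cartilage growth. The window chr6:119490001-119495000 had 5.17, 6.64 and 4.94 in cKO replicates 1, 3 and 4 and 1.80, 1.62 and 1.17 in WT replicates 1, 2 and 4. The lowest cKO library was thus far above the highest WT library, and the means were 5.58 ± 0.924 and 1.53 ± 0.327 (SD, n = 3 each; difference 4.05, SE 0.475, limma adjusted p = 0.0145). The window was intronic, its centre lay 51.8 kb downstream of the TSS, and it held 79 CpGs. Behind these values were 79, 58 and 117 reads in cKO and 19, 17 and 29 in WT. Scaled to library size and set against the mean input of the same genotype, reads were 1.82 to 2.79 times as high in cKO and 0.40 to 0.708 times in WT, so the window was below input in every WT library and above it in every cKO library. The gain also passed with an intensity trend (adjusted p = 0.000438) and in edgeR (adjusted p = 0.00054), but not in limma on log2(value + 1) (adjusted p = 0.0719). It was called without cKO replicate 1 (difference 4.26, adjusted p = 0.0165) and without cKO replicate 3 (3.52, 0.0273), but not without WT replicates 1, 2 or 4 (0.0594, 0.088 and 0.0661) or cKO replicate 4 (0.0668).

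The next window of Wnt5b toward its TSS, chr6:119495001-119500000, was gained with a smaller difference. It had 4.50, 4.79 and 4.31 in cKO and 2.96, 2.59 and 2.85 in WT (difference 1.74, SE 0.335, limma adjusted p = 0.0456). The libraries of each group lay close together and the groups did not overlap, but the call was lost with an intensity trend (adjusted p = 0.0997) and in edgeR (adjusted p = 0.592), and with any library but cKO replicate 1 left out (adjusted p between 0.0828 and 0.173). The rest of Wnt5b did not follow this stretch. Of its 23 windows, 13 were higher in cKO, 6 had all cKO above all WT and 1 had all cKO below, where 61.1% of all gene windows were higher, 15.4% had all cKO above and 6.08% all below. That 1 was chr6:119475001-119480000, where Fbxl14 lies within Wnt5b, with 5.06, 3.74 and 3.83 in cKO and 5.57, 6.09 and 5.10 in WT (difference −1.38, SE 0.451, limma adjusted p = 0.178). At the TSS window, which holds the Wnt5b promoter shown above, the difference was 1.06 (SE 0.403, limma adjusted p = 0.248).

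Wnt7a (ENSMUSG00000030093, chromosome 6, 91363981 to 91411363, minus strand), a ligand that patterns the female reproductive tract, held the third gain. The window chr6:91385001-91390000 had 3.84, 5.85 and 4.89 in cKO and 2.01, 1.72 and 2.13 in WT (means 4.86 ± 1.01 and 1.95 ± 0.213, SD, n = 3 each). Every cKO library was above every WT library (difference 2.91, SE 0.489, limma adjusted p = 0.0325). The gain passed with an intensity trend (adjusted p = 0.00523) but not in edgeR (adjusted p = 0.0581), and it was lost with any library but cKO replicate 1 left out (adjusted p between 0.0564 and 0.126).

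Along the rest of Wnt7a no other window passed the main test. All 11 windows were higher in cKO, and in 9 of them the groups did not overlap (background over gene windows 61.1% higher and 15.4% with all cKO above). At the TSS window, chr6:91410001-91415000, levels were 6.28, 6.11 and 6.48 in cKO and 7.35, 4.93 and 6.14 in WT, which overlapped (difference 0.151, SE 0.545, limma adjusted p = 0.906). Just downstream, the WT means were between 0.88 and 1.95 over the next 9 windows, while the cKO means there lay between 1.75 and 4.86. With an intensity trend 6 windows of Wnt7a were called, and in edgeR 5, more than in any other of the 36 genes under either test, where the background was 2.6% and 1.63% of gene windows. One example is chr6:91400001-91405000 in the first part of the gene, with 2.67, 4.00 and 2.34 in cKO and 1.23, 0.548 and 1.29 in WT (limma adjusted p = 0.0798, with the trend 0.00542, edgeR 0.000733).

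Wnt7b, Wnt11 and Wnt3a showed higher cKO means at each of their windows without a call in the main test. They were not alone in this, since Wnt3, Sfrp1 and Wnt9a did so at all of their 10, 8 and 6 windows. All 10 windows of Wnt7b were higher in cKO, but only 2 had no overlap, because cKO replicate 1 often lay within the WT range. At chr15:85555001-85560000, for example, Wnt7b had 2.34, 6.25 and 4.65 in cKO and 1.91, 1.03 and 2.43 in WT (difference 2.62, SE 0.819, limma adjusted p = 0.16). All 5 windows of Wnt11 had the cKO libraries above WT, the widest at chr7:98845001-98850000 with 6.11, 7.70 and 5.18 against 3.22, 3.47 and 4.14 (difference 2.72, SE 0.584, limma adjusted p = 0.0605). That Wnt11 window and the one from 98855001 were called with an intensity trend (adjusted p = 0.0246 and 0.039) and not in edgeR (0.609 and 0.712). In Wnt3a, a ligand of the trunk and tail, all 10 windows were higher and 6 did not overlap. The intensity trend called gains in 2 windows of Wnt7b and 1 of Wnt3a, where the background was 2.6% of gene windows. In edgeR 1 window of Wnt7b and 0 of Wnt3a were called (background 1.63%). For Wnt7b, Wnt11 and Wnt3a too the background was 61.1% of gene windows higher and 15.4% with all cKO above.

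**Figure D2:**
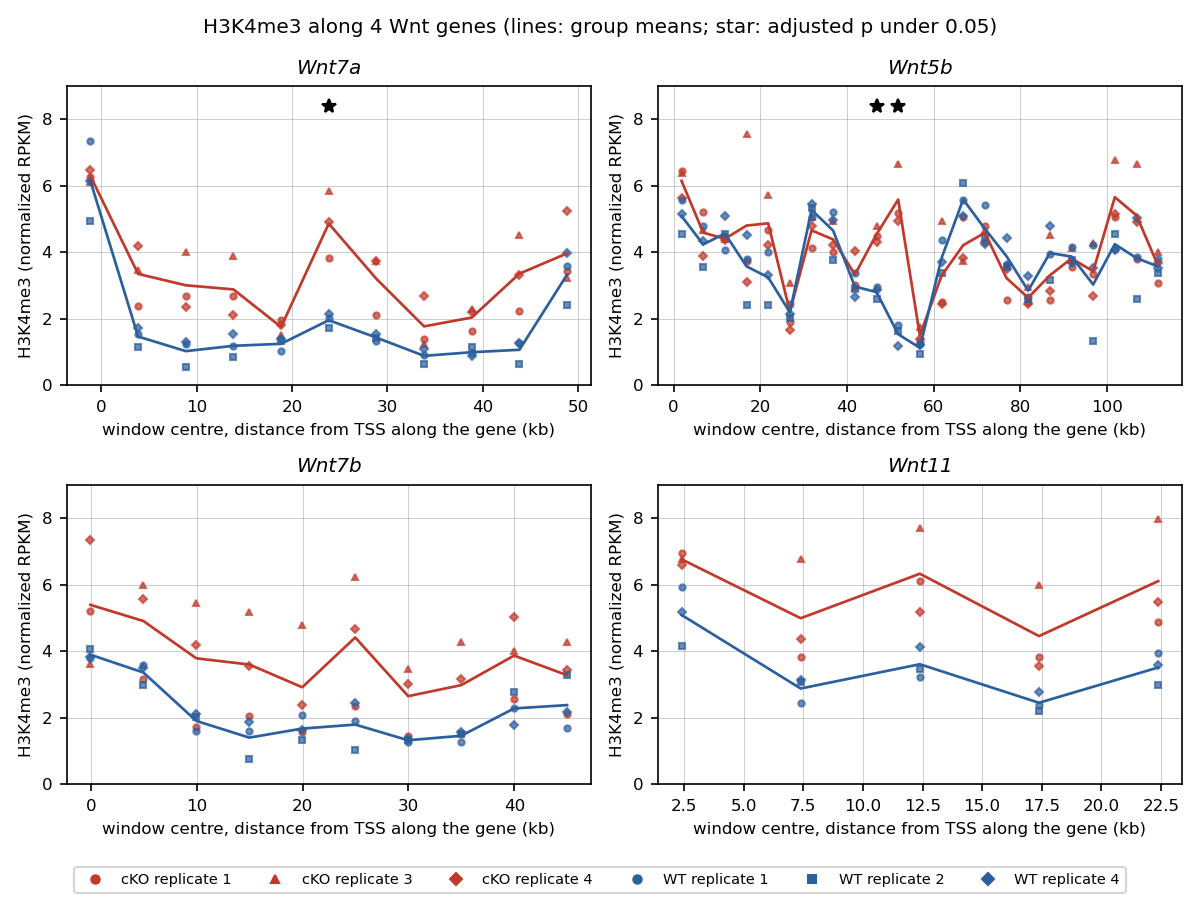
H3K4me3 (y axis, normalized RPKM) in the successive 5 kb windows of Wnt7a, Wnt5b, Wnt7b and Wnt11 against the distance of the window centre from the TSS (x axis, kb), with 1 point per library, lines for the means of cKO (red) and WT (blue) and stars for the 3 gained windows. In Wnt7a the lines meet at the TSS and part in the gene body, and in Wnt5b they part at the gained windows, 46.8 and 51.8 kb from the TSS.

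Averaged over all windows of a gene, 28 genes were again higher in cKO and 8 lower, and again edgeR gave a smaller share. The median difference was 0.444 against 0.148 over all genes, of which 61.7% were higher. In edgeR the mean log2 fold change over the windows was above 0 for 22 of 36 genes, against 67.0% of all genes. All cKO libraries were above all WT libraries for 15 genes and below for 1, where the background was 23.2% above and 7.88% below. The 15 were 9 ligands, 2 receptors (Fzd2 and Fzd9) and 4 inhibitors (Sfrp1, Sfrp2, Dkk1 and Dkk2), and the 1 was Fzd7. The largest average difference was at Wnt11, with 5.12, 7.04 and 5.03 in cKO and 3.58, 3.17 and 3.76 in WT (difference 2.22). Fzd2 came next, with 5.44, 7.04 and 5.30 in cKO and 4.34, 3.81 and 4.39 in WT (difference 1.75). In both genes cKO replicate 3 was the highest library by more than 1 normalized RPKM.

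**Figure D3:**
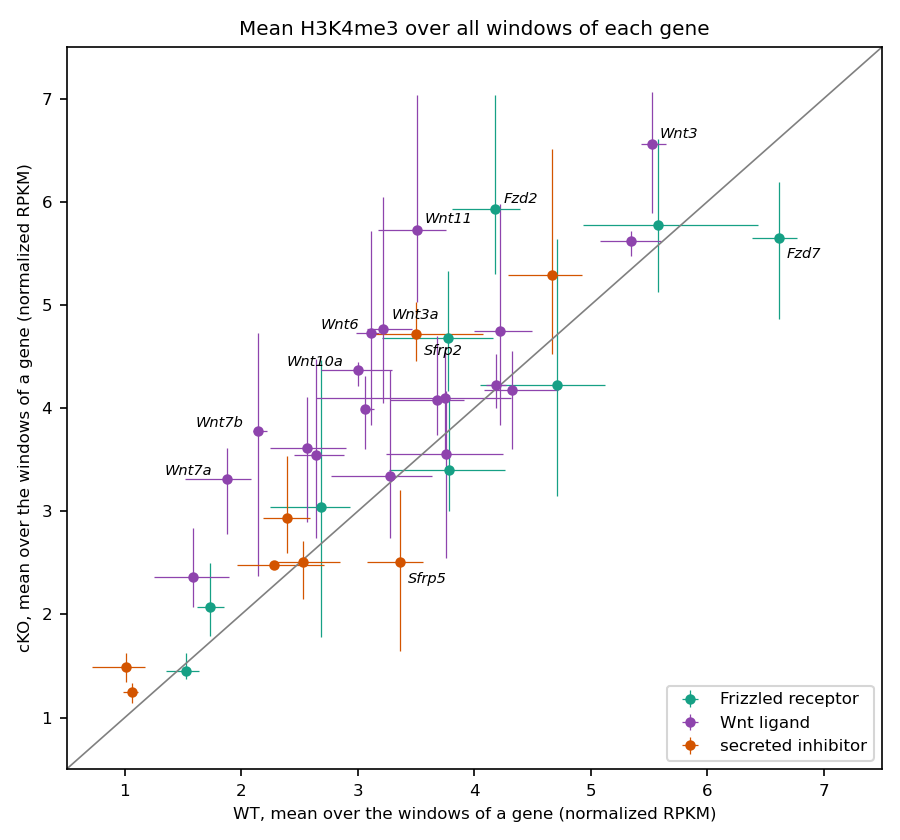
Mean H3K4me3 over all windows of each gene in cKO (y axis) against WT (x axis), both in normalized RPKM, with bars from the lowest to the highest library and a line of equality. Wnt11, Fzd2, Wnt7b, Wnt6, Wnt3a and Wnt7a lie well above the line, Fzd7 and Sfrp5 below it, and in edgeR the mean over windows was above 0 for 22 of the 36 genes.

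Window by window, the share higher in cKO was above the background on the deposited scale and below it in edgeR. The cKO mean was higher in 153 of 207 windows (73.9%), against 61.1% of gene windows, but in edgeR in 133 of 207 (64.3%), against 67.4% of gene windows. All cKO libraries were above all WT libraries in 57 of the 207 windows and below in 8, where the background was 15.4% above and 6.08% below. Ligands contributed 44 windows above and 4 below of 127, receptors 3 above and 4 below of 33, and inhibitors 10 above and none below of 47. The median difference was 0.887 for ligand windows, 0.0317 for receptor windows and 0.146 for inhibitor windows, against 0.0579 for inhibitor and −0.0768 for receptor windows without cKO replicate 1, and 0.0984 and 0.131 without cKO replicate 3. In edgeR the order was another one, with median log2 fold changes of 0.16 for ligand, 0.07 for receptor and 0.30 for inhibitor windows and 0.27 over all gene windows. Several ligand genes are neighbours, such as Wnt3a and Wnt9a or Wnt3 and Wnt9b on chromosome 11, and the windows of 1 gene adjoin each other, so they are not independent. The highest median over the 207 windows was that of cKO replicate 3 at 3.87 (2.78 and 3.45 in cKO replicates 1 and 4, 2.48 to 2.85 in WT). The same library was highest over all gene windows (median 2.02, against 1.39 to 1.81 in the others). Without cKO replicate 3, 140 of 207 windows were higher, and 26 of 36 genes at the highest window.

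The Frizzled receptors, which span the membrane and bind the ligands, had the most CpG-rich highest windows of the 3 classes, with a median of 207 CpGs, and no gain or loss. Fzd8 was the most strongly marked of all 36 genes in WT, with 10.5, 7.83 and 8.22 in cKO and 8.08, 10.5 and 6.41 in WT (difference 0.543, SE 0.962, limma adjusted p = 0.793). The spread within each group was larger than the difference. Fzd7, linked to stem cell maintenance, had 6.77, 5.45 and 6.39 in cKO and 7.87, 6.68 and 6.95 in WT (difference −0.962, SE 0.46, limma adjusted p = 0.368). At this window cKO replicate 1 was above WT replicate 2, whereas the averages over both windows of Fzd7 did not overlap. Fzd3, which guides axons, had 6.94, 2.95 and 4.75 in cKO and 6.83, 6.09 and 4.98 in WT (difference −1.09, SE 0.859, limma adjusted p = 0.518). Fzd5, which acts in the eye and gut, had 3.39, 4.40 and 4.89 in cKO and 5.83, 3.95 and 5.10 in WT (difference −0.733, SE 0.542, limma adjusted p = 0.491). In both of these the groups overlapped.

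Fzd2 had the largest difference among the receptors on the deposited scale. Its highest window had 5.94, 6.38 and 5.42 in cKO and 4.68, 4.83 and 4.47 in WT (difference 1.26, SE 0.366, limma adjusted p = 0.135), and its other window 4.94, 7.70 and 5.18 against 4.00, 2.79 and 4.32 (difference 2.24, SE 0.70, limma adjusted p = 0.16). Neither passed, and the edgeR adjusted p was 0.932 and 0.788. Fzd9 also had no overlap, with 4.17, 4.53 and 5.33 in cKO and 4.16, 3.95 and 3.21 in WT (difference 0.902, SE 0.423, limma adjusted p = 0.357), although cKO replicate 1 and WT replicate 1 were nearly equal. The differences at Fzd1, Fzd4 and Fzd6 ranged from −0.0626 to 0.762.

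The secreted inhibitors had no gain or loss, and their levels covered a wide range. Dkk4, a coreceptor blocker, was the highest, with 6.72, 8.23 and 6.92 in cKO and 7.77, 7.36 and 6.53 in WT (difference 0.0679, SE 0.489, limma adjusted p = 0.955). Dkk1, the best studied coreceptor blocker, was the lowest of all 36 genes, with 1.34, 1.62 and 1.52 in cKO and 1.18, 1.13 and 0.719 in WT (difference 0.485, SE 0.333, limma adjusted p = 0.491). Its reads were below input in all 6 libraries, between 0.229 and 0.761 times, although its window held 94 CpGs. In total, 30 of the 36 highest windows, which were chosen for their level, were above input in all 6 libraries. Over all 207 windows the count was 89, and the share over all genes was not computed.

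Sfrp5, which binds Wnt ligands, had the largest difference toward WT of all 36 genes, with 1.95, 3.87 and 3.11 in cKO and 4.68, 3.37 and 4.50 in WT (difference −1.21, SE 0.537, limma adjusted p = 0.329). The groups overlapped, since cKO replicate 3 was above WT replicate 2. Dkk3, a divergent member of its family, had 3.39, 4.66 and 4.07 in cKO and 4.11, 3.95 and 5.43 in WT (difference −0.452, SE 0.488, limma adjusted p = 0.643). Sfrp2 went the other way, with 5.22, 5.19 and 4.22 in cKO and 3.06, 3.17 and 4.20 in WT (difference 1.40, SE 0.44, limma adjusted p = 0.162), and the groups were separated only narrowly. Sfrp1, Sfrp4 and Dkk2 had differences between 0.167 and 1.11.

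CpG density, which the choice of genes did not use, was high at these genes. Their highest windows held a median of 140.5 CpGs, against 70 at the highest windows of all genes, and all of their windows a median of 63, against 44 in all gene windows. Across the 207 windows, CpG content, as log2 of the CpG frequency over that of the genome, and the difference between genotypes had a Spearman rho of 0.23 (across windows that share the same 6 libraries). Over 213954 gene windows with enough known bases rho was 0.289. The most CpG-dense windows were not those with a gain. The windows with the TSS of Fzd1, Fzd5, Fzd7 and Fzd8 held 274, 283, 289 and 280 CpGs and differed by −0.0626, −0.733, −0.962 and 0.543, while the 3 gained windows held 79, 72 and 57. Ligand windows were also CpG-dense, with 271, 254, 247, 229 and 223 CpGs at the highest windows of Wnt7b, Wnt11, Wnt9a, Wnt4 and Wnt5b. These differed by 1.50, 1.68, 0.652, 1.32 and 1.06 on the deposited scale, and none passed the test.

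**Figure D4:**
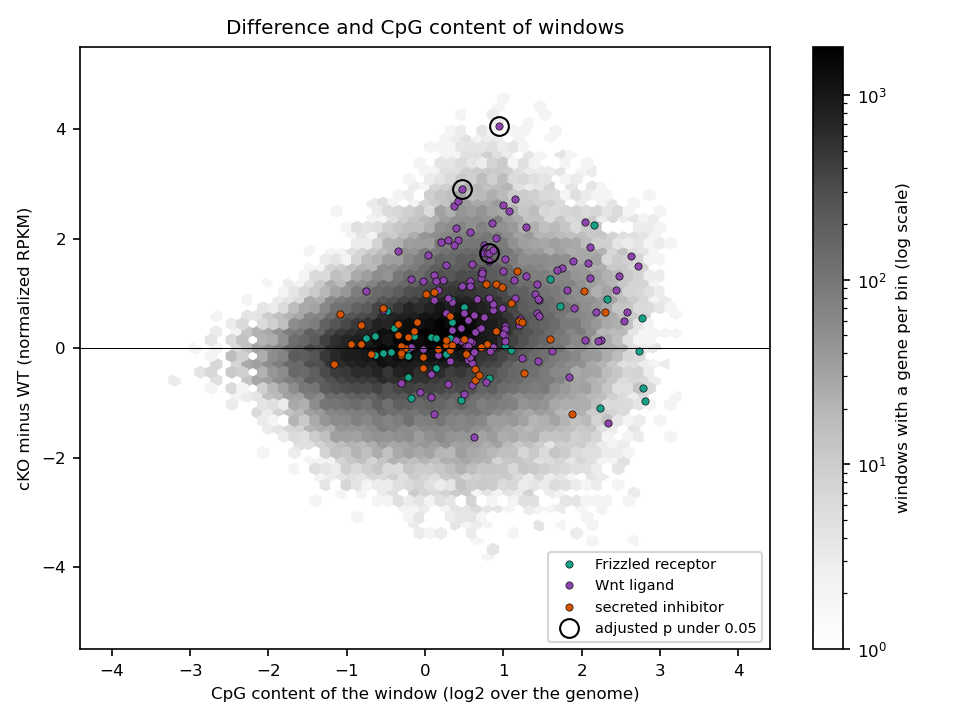
Difference between genotypes (y axis, cKO minus WT, normalized RPKM) against CpG content of the window (x axis, log2 over the genome) for the 207 windows, coloured by class, over the density of all gene windows (grey, log scale). The 3 gained windows (rings) are of moderate CpG content, and the receptor windows at the right edge lie near or below 0 apart from a few.

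Other genes of the pathway were taken from a list of 46 with coreceptors, R-spondins and their receptors, secretion factors, further inhibitors, cytoplasmic signal carriers and nuclear factors, of which 45 had a window. At their highest windows there were 0 gains and 3 losses (background 1.28% and 1.18% of the highest windows of all genes), and none of the losses was called by edgeR, on the log2 scales, after quantile normalization or without any 1 of WT replicates 1, 2 and 4 and cKO replicate 4. Without cKO replicate 3 there was 1 loss. At an unadjusted p under 0.05 in limma 9 were higher and 11 lower, where the background was 13.9% and 11.6%. Lef1, a nuclear partner of beta-catenin, had 6.61, 5.06 and 6.10 in cKO and 8.97, 9.50 and 9.02 in WT (difference −3.24, SE 0.439, limma adjusted p = 0.0196, edgeR 0.597). Csnk1e, a casein kinase that acts on Dishevelled, had 7.50, 7.57 and 8.90 in cKO and 11.0, 11.6 and 9.80 in WT (difference −2.81, SE 0.542, limma adjusted p = 0.0459, edgeR 0.685). Csnk1a1, the kinase that primes beta-catenin for removal, had 2.45, 2.81 and 1.76 in cKO and 3.84, 5.22 and 4.68 in WT (difference −2.24, SE 0.447, limma adjusted p = 0.0498, edgeR 0.117). In all 3 genes the cKO libraries lay below WT without overlap.

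The split of these genes differed from that of the ligands in its counts, without a test of that difference. On the deposited scale 25 of 45 (55.6%) were higher and 20 lower in cKO, against 51.6% of all genes higher. By edgeR 15 of 45 (33.3%) were higher, against 39.2% of all genes. All cKO libraries were above all WT libraries at 7 of the 45 and below at 11, where the background was 13.8% and 10.6%. Of 6 coreceptors 5 were lower, of 13 signal carriers 7 were higher, and of 8 nuclear factors 6 were higher. Higher too were 5 of 9 R-spondins and their receptors, 5 of 7 further inhibitors and 1 of 2 secretion factors. The median difference was 0.235, against 0.038 over all genes (0.366 and −0.0224 without cKO replicate 1). By edgeR the median log2 fold change was −0.17, against −0.11 over all genes.

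**Figure D5:**
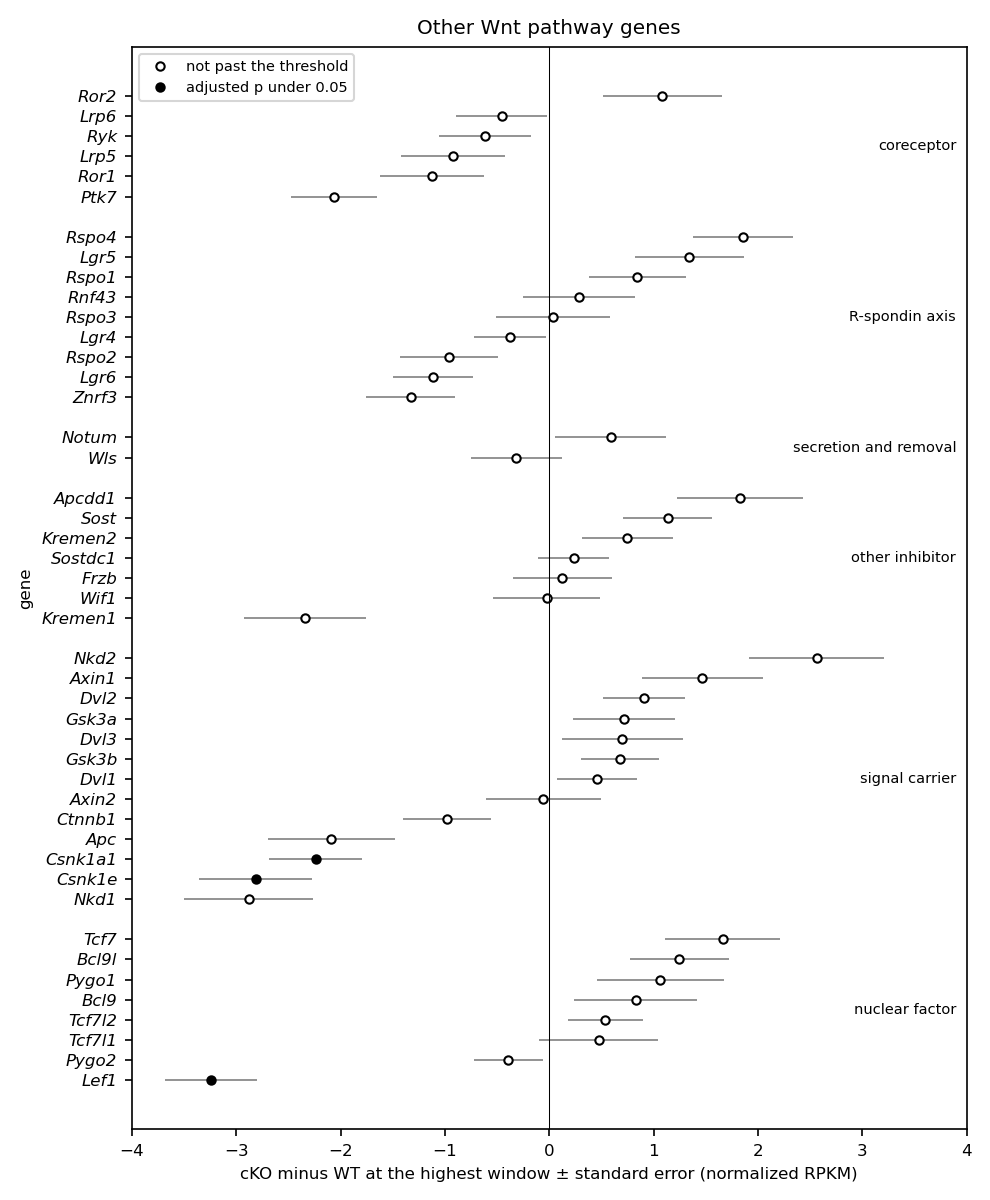
Difference between genotypes at the highest window (x axis, cKO minus WT ± SE, normalized RPKM) for 45 other Wnt pathway genes, grouped by role, with filled points for those past the test. Lef1, Csnk1e and Csnk1a1 are the filled points, all to the left of 0.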

How the data were processed

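H3K4me3 ULI-nChIP-seq and input libraries of Setd1b cKO and WT GV oocytes were used as deposited. Per the labels and the methods, the authors trimmed reads with Trim Galore (0.4.2), mapped them with Bowtie2 (2.2.9) to GRCm38, removed mappings of MAPQ under 20, quantified non-overlapping 5 kb windows in SeqMonk and left out windows of high input. The deposited H3K4me3 values are a score, enrichment-normalized RPKM, in which each library was shifted and scaled so that the 40th (1.23) and 99th (6.77) percentiles were equal. The deposited input values are a signal, reads per window scaled to library size. Whole reads were recovered from the equal steps of each library (100% of values whole within 0.1). Their totals ranged from 10856015 to 32775874 for H3K4me3 and from 20756128 to 26566505 for input, and duplicates could not be told apart.

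Each window was compared between genotypes by limma (3.58.1, R 4.3.3) on the values as deposited (two-sided, no intensity trend, no replicate block, Benjamini-Hochberg over 544879 windows, adjusted p under 0.05). Alternatives were log2(value + 1) and log2(value + 0.1), an intensity trend, quantile normalization, a mean of at least 1, a replicate block, each library left out, the TSS window in place of the highest, and edgeR 4.0.16 on whole reads (TMM, quasi-likelihood test, at least 10 reads in all). The fits were tested on simulated data. TSS and exons came from GENCODE M21, CpG counts from GRCm38, promoters from RefSeq. Tables were handled with pandas 2.3.3 and numpy 2.4.6 in Python 3.11.15 and with the R package data.table (version 1.17.8), rank correlations with scipy 1.17.1 and plots with matplotlib 3.10.9.

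Values in every library are given for genes with a called window, for the 5 genes with the highest WT mean at the highest window and for the 5 largest differences in each direction. Of the other pathway genes, those called are named. Values of Wnt7b, Wnt11, Wnt7a and Wnt5b at further windows, and of Fzd2, Fzd9, Dkk1 and Sfrp2, were added after they were seen. So was the leaving out of each library at the called windows. The genes, the pathway and marker lists and the tests were chosen with earlier results of these data known. Transcript levels were not analysed here.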

Additional observations from a re-analysis of the deposited data

How the results depend on the processing

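The number of gains among the 207 windows, 3 as reported, was 13 with an intensity trend, 7 in edgeR, 0 on both log2 scales and 0 after quantile normalization, and from 0 to 22 with 1 library left out (22 without cKO replicate 1, 1 without cKO replicate 3, 0 without any other). Over all gene windows gains were 2.87% without cKO replicate 1, 0.384% without cKO replicate 3 and 0 without any other, on both log2 scales and after quantile normalization. Losses were 0 to 2. At the highest windows gains were 1 with the trend and 0 to 1 with a library left out (over all genes 3.6% gains and 2.91% losses without cKO replicate 1, 0.491% and 0.336% without cKO replicate 3, and 0 gains without any other). The 28 genes higher in cKO were 17 in edgeR. For the other pathway genes the trend gave 1 gain and 5 losses (2.12% and 2.48% of all genes), edgeR, both log2 scales and quantile normalization 0 losses, and leaving out a library 0 to 3 gains and 0 to 3 losses, 3 of each without cKO replicate 1. Left out in turn, the libraries gave differences of 3.52 to 4.37 (adjusted p 0.0165 to 0.088) at the first Wnt5b window, 1.61 to 1.85 (0.0395 to 0.173) at the second and 2.41 to 3.42 (0.0165 to 0.126) at Wnt7a, called in 2, 1 and 1 of 6 cases. With a replicate block there were 21 gains and 3 losses over the 207 windows, 6 and 1 at the highest windows, and 4 and 8 in the other pathway genes, against 4.1% and 2.27% of gene windows and 7.5% and 6.25% of highest windows. The calls over the 207 windows then included 1 window of the receptor gene Fzd8 and 1 of the inhibitor gene Sfrp5. The genotypes share only the numbers 1 and 4, whose deviations from the group means correlated at 0.319 and 0.019, and the labels tie them to no common animal or day, so the numbers do not pair the samples. The cause of these shifts was not tested. With 11 to 47 reads in the median window of a library, counting error limits single windows.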
